A study of Mus musculus with 15 samples.

Results

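The genes described here are 10 C-type lectin receptors of myeloid cells, *Clec7a*, *Clec4n*, *Clec4a1*, *Clec4a2*, *Clec4a3*, *Clec4d*, *Clec4e*, *Clec12a*, *Clec5a* and *Clec9a*, measured in sorted microglia. They were picked by name among 32471 transcript clusters with a gene symbol, and each was represented by 1 cluster of 17 to 29 probes. Their RNA was hybridised to 15 arrays (Affymetrix Mouse Gene 2.0 ST), 1 mouse per array. All mice were on a C57BL/6 background and carried floxed *Tgfbr2* alleles (*Tgfbr2* fl/fl) together with the *R26-yfp* reporter. In Cre/+ TAM (n = 6), a tamoxifen-inducible Cre expressed from the *Cx3cr1* locus (*Cx3cr1CreERT2*) was activated by 8 mg tamoxifen, which deletes *Tgfbr2*, the type II receptor of TGFβ. In wt TAM (n = 6), tamoxifen was given to littermates without Cre, whose *Tgfbr2* stays floxed but intact. In Cre/+ OIL (n = 3), Cre carriers were injected with oil and no tamoxifen. Injections began at 6 to 8 weeks of age, 2 time points 48 h apart, and cells were sorted 4 weeks later. *Cx3cr1* is also expressed by other macrophages, so the deletion is not restricted to microglia. Meninges were removed before sorting, and the labels give a CD11b+/CD45low gate for all groups, whereas the study's text gives YFP+/CD45low for Cre/+ TAM. Mice are numbered within their group.

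C-type lectin receptors are membrane proteins through which macrophages, dendritic cells and neutrophils bind glycans of fungi and bacteria as well as products of dying cells. *Clec7a* (dectin-1) binds β-glucans and signals through Syk and Card9, while the products of *Clec4n* (dectin-2), *Clec4d* (dectin-3) and *Clec4e* (Mincle) signal through the Fc receptor γ chain, and that of *Clec5a* through Tyrobp and Hcst. Inhibitory members such as *Clec4a2* and *Clec12a* carry a cytoplasmic motif that recruits phosphatases. Microglia in diseased brain are known for *Clec7a*, whereas *Clec9a* is a receptor of cross-presenting dendritic cells.

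The arrays fit their labels as microglia. The mean log2 signal over 12 microglia markers was 9.69 to 10.18 in Cre/+ TAM, 9.84 to 10.19 in wt TAM and 9.97 to 10.26 in Cre/+ OIL. Cre/+ TAM mouse 1 had the lowest mean of all arrays (9.69), while the remaining Cre/+ TAM mice lay between 10.09 and 10.18. *Tgfbr2* had a log2 signal of 8.14 ± 0.17 in Cre/+ TAM, 8.12 ± 0.12 in wt TAM and 8.25 ± 0.29 in Cre/+ OIL (SD, n = 6, 6 and 3). Only exons 2 and 3 are removed, and the exons under the probes were not looked up, so the signal is no check of the deletion. Cre/+ TAM mice 1 and 2 stood apart from the other 4 Cre/+ TAM mice. Their mean over 14 markers of border-associated macrophages, which line meninges and vessels, was 6.99 in mouse 1 and 5.62 in mouse 2, while the other 4 lay between 4.97 and 5.14. The same mean was 4.56 to 4.73 in wt TAM and 4.48 to 4.63 in Cre/+ OIL, below every Cre/+ TAM mouse. Neutrophil markers were highest outside Cre/+ TAM, in wt TAM mouse 2 (list mean 5.07) and Cre/+ OIL mouse 3 (5.50), while all other arrays lay below 4.0. Animal numbers in the sample titles fell into a lower range (2 Cre/+ TAM, 3 wt TAM and 3 Cre/+ OIL mice), and an upper range (4 Cre/+ TAM and 3 wt TAM mice).

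All 10 genes lie on chromosome 6 (coordinates as deposited; those of 7 equal the RefSeq annotation of GRCm38.p6, while the authors named no build in what was read here). *Clec4a1* (122921848 to 122934619), *Clec4a3*, *Clec4a2*, *Clec4n*, *Clec4d* and *Clec4e* follow each other within 368 kb. *Clec12a* (129342691 to 129365303), *Clec9a* and *Clec7a* (129461591 to 129472777) share 130 kb, 6.05 Mb farther on, and *Clec5a* stands alone (40574898 to 40585805). Promoters are shown for *Clec4a1*, *Clec7a* and *Clec12a*, 3 of the 4 receptors with the largest differences between Cre/+ TAM and wt TAM. That of *Clec4a3*, the neighbour of *Clec4a1*, is shown as well. Each runs 250 bases before to 50 after the start that the RefSeq promoter table (GRCm38.p6) uses, 5′ to 3′ on the gene's own strand. For *Clec12a* that start lies 461 bases inside the gene's annotated 5′ end, and for the other 3 it is that end. Capitals mark matches, on either strand, to GAGGAA (the core bound by PU.1, the lineage factor of myeloid cells), CAGAC (SMAD box, bound by the effectors of TGFβ signalling) and TGANTCA (AP-1), and in these 4 promoters no matches to different motifs overlap.
Clec4a1 (chr6:122921598-122921897, plus strand): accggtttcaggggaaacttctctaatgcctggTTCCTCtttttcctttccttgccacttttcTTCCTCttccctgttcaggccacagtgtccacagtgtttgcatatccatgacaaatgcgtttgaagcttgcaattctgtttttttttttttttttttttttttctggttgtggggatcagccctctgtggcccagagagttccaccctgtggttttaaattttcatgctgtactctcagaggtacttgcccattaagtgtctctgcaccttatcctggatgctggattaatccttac
Clec7a (chr6:129472736-129473035, minus strand): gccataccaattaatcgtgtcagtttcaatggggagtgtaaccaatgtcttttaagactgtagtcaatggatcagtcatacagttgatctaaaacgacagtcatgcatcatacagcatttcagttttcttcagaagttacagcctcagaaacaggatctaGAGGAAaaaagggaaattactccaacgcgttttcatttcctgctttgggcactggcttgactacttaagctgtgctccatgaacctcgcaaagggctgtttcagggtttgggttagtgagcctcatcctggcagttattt
Clec12a (chr6:129349994-129350293, plus strand): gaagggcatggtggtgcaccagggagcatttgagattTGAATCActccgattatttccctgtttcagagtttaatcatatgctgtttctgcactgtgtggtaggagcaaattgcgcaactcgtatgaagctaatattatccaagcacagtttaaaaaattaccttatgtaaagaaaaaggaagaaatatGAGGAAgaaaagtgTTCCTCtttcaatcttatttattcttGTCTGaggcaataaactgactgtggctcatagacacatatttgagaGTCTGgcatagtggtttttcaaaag
Clec4a3 (chr6:122952265-122952564, plus strand): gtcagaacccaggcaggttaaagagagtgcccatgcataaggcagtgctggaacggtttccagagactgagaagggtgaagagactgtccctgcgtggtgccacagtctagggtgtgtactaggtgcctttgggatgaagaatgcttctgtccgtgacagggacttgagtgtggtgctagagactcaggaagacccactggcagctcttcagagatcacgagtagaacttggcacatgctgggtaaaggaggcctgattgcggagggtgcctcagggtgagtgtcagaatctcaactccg
GAGGAA was found 2 times in the window of *Clec4a1*, 1 time in that of *Clec7a* and 2 times in that of *Clec12a*, and not in that of *Clec4a3*. Of the 9 members in the RefSeq table, which has no entry for *Clec4n*, 6 held GAGGAA, against 28.3% of all 32851 promoters. CAGAC was in the windows of 4 of 9 members, against 49.6% of all, with 2 matches at *Clec12a* and none at *Clec4a1* or *Clec7a*. TGANTCA was in 2 of 9, against 7.81% of all. These matches describe the letters only.

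Cre/+ TAM was first compared with wt TAM, which also received tamoxifen. These groups differ in the Cre allele at *Cx3cr1* as well as in the deletion, and the effects of both cannot be told apart here. *Cx3cr1* itself had a log2 fold change of -0.43 in Cre/+ TAM against wt TAM (limma, adjusted p = 0.447). Against Cre/+ OIL it was -0.15 (limma, adjusted p = 0.942). *Clec4a1*, *Clec4n*, *Clec7a* and *Clec12a* averaged about 2-fold higher in Cre/+ TAM, with log2 fold changes of 1.30, 1.17, 0.95 and 0.91, and the other 6 receptors lay between -0.16 and 0.19. None of the 10 passed the test (limma, Benjamini-Hochberg adjusted p over all clusters, at least 0.447), as against 8 of 32471 clusters (0.0246%). At an unadjusted p under 0.05, 3 members were higher (*Clec7a*, *Clec4a1* and *Clec12a*) and 0 lower, where 2.92% of all clusters were higher. No member separated the 12 mice without overlap, as 0.465% of all clusters did. The median log2 fold change was 0.17 over the members and -0.02 over all clusters. In bulk RNA of sorted cells, a higher level per cell and more cells of a type with a high level cannot be told apart.

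**Figure D1:**
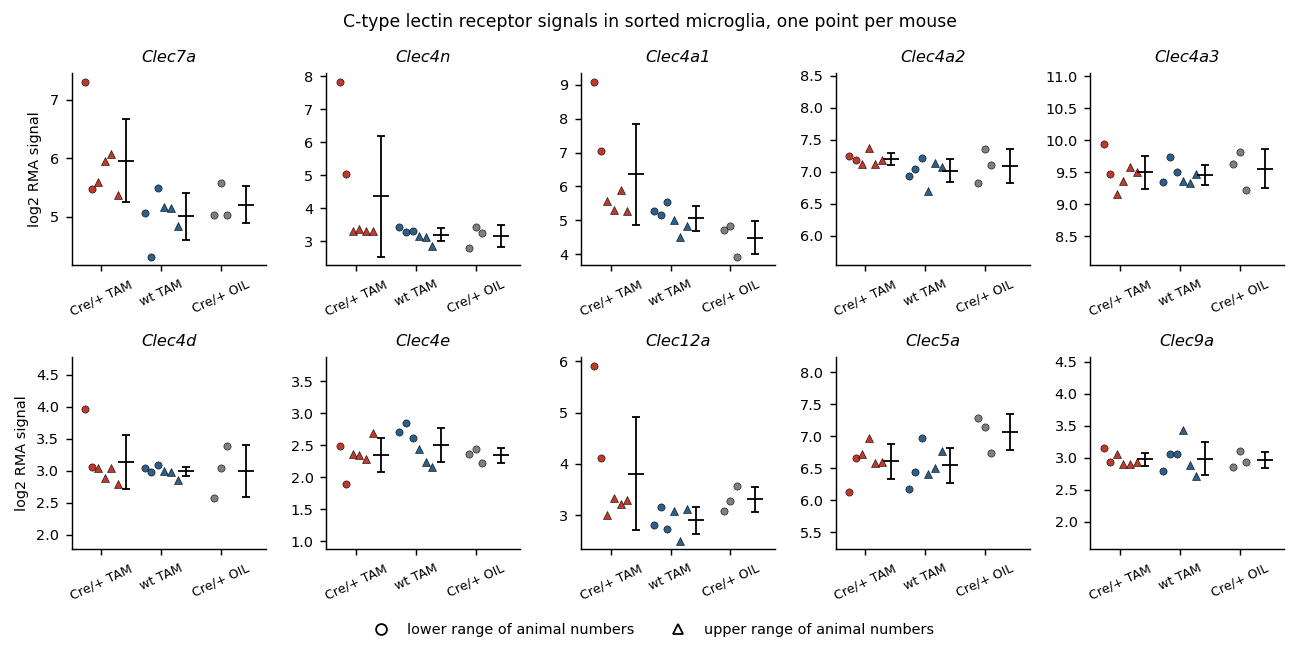
Log2 RMA signal of each receptor (y axis) in Cre/+ TAM, wt TAM and Cre/+ OIL, 1 point per mouse, with the mean and SD beside each group; circles are the lower and triangles the upper range of animal numbers, and panels have their own offsets. Mouse 1 of Cre/+ TAM is the highest Cre/+ TAM point for *Clec7a* (7.30), *Clec4n* (7.83), *Clec4a1* (9.09) and *Clec12a* (5.91).

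*Clec7a* had log2 signals of 7.30, 5.46, 5.58, 5.94, 6.07 and 5.37 in Cre/+ TAM mice 1 to 6. In wt TAM the signal ran between 4.32 and 5.49 (median 5.10), and Cre/+ OIL mice 1 to 3 had 5.02, 5.57 and 5.02. Thus 4 of the 6 Cre/+ TAM mice lay above every wt TAM mouse, and the remaining pair, mice 2 and 6, overlapped with wt TAM mouse 3 only. The mean was 5.96 ± 0.71 in Cre/+ TAM and 5.00 ± 0.40 in wt TAM (SD, n = 6 each), a log2 fold change of 0.95 with a standard error of 0.27 (limma, adjusted p = 0.447). This was the smallest unadjusted p among the receptors. Against Cre/+ OIL the log2 fold change was 0.75 (SE 0.33, limma, adjusted p = 0.849), and 4 of 6 Cre/+ TAM mice were above all 3 Cre/+ OIL mice.

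*Clec4a1*, a mouse paralogue of the inhibitory receptor gene *Clec4a2*, had signals of 9.09, 7.06, 5.56, 5.30, 5.90 and 5.26 in the Cre/+ TAM mice, in the same order. In wt TAM it ran between 4.50 and 5.55 (median 5.09), and in Cre/+ OIL it was 4.70, 4.82 and 3.92. All 6 Cre/+ TAM mice lay above all 3 Cre/+ OIL mice, and 4 of them above all wt TAM mice. Means were 6.36 ± 1.49 in Cre/+ TAM, 5.06 ± 0.37 in wt TAM and 4.48 ± 0.49 in Cre/+ OIL (SD, n = 6, 6 and 3). The log2 fold change was 1.30 (SE 0.49, limma, adjusted p = 0.711) against wt TAM and 1.88 (SE 0.60, limma, adjusted p = 0.683) against Cre/+ OIL. Without mouse 1 the difference from wt TAM was 0.76, so that this mouse carried much of the mean.

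For *Clec4n* the mean rested on mice 1 and 2. Their signals were 7.83 and 5.05, while the other 4 Cre/+ TAM mice lay between 3.32 and 3.37, within the range of wt TAM (2.87 to 3.42, median 3.23) and of Cre/+ OIL (2.80, 3.44 and 3.25). The mean was 4.37 ± 1.83 in Cre/+ TAM and 3.20 ± 0.19 in wt TAM (SD, n = 6 each), with a log2 fold change of 1.17 (SE 0.58, limma, adjusted p = 0.866) that was 0.48 without mouse 1.

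*Clec12a*, whose product is an inhibitory receptor that senses uric acid crystals, had signals of 5.91 and 4.12 in mice 1 and 2 and of 3.01, 3.34, 3.21 and 3.30 in mice 3 to 6. wt TAM ran between 2.50 and 3.17 (median 2.95), below 5 of the 6 Cre/+ TAM mice. Cre/+ OIL mice had 3.08, 3.28 and 3.57 and overlapped with the 4 Cre/+ TAM mice of the upper range. The mean was 3.81 ± 1.09 in Cre/+ TAM and 2.90 ± 0.26 in wt TAM (SD, n = 6 each), a log2 fold change of 0.91 (SE 0.36, limma, adjusted p = 0.753), and it was 0.49 without mouse 1.

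For the remaining receptors the group means lay closer together. *Clec4a2* averaged 7.20 ± 0.09 in Cre/+ TAM and 7.02 ± 0.18 in wt TAM, and *Clec4a3*, another paralogue in the same cluster, averaged 9.50 ± 0.26 in Cre/+ TAM and 9.46 ± 0.15 in wt TAM (SD, n = 6 each). The 95% confidence interval of the log2 fold change was -0.04 to 0.41 for *Clec4a2* and -0.23 to 0.31 for *Clec4a3*. Neighbouring genes of the cluster thus had unlike values, *Clec4a1* and *Clec4n* reaching 4.03 and 4.63 above the wt TAM mean in mouse 1, where *Clec4a3* and *Clec4a2* were 0.47 and 0.23 above it. For *Clec4d* and *Clec4e*, sensors of mycobacterial glycolipids, the log2 fold changes were 0.14 (95% confidence interval -0.22 to 0.50) and -0.16 (-0.44 to 0.13), although *Clec4d* in mouse 1 stood 0.98 above the wt TAM mean. *Clec9a* differed by -0.01 (-0.24 to 0.23). In all, the interval lay within a 1.5-fold change in either direction for 6 of the 10 receptors, namely *Clec4a2*, *Clec4a3*, *Clec4d*, *Clec4e*, *Clec5a* and *Clec9a*. *Clec4n*, *Clec4d*, *Clec4e*, *Clec12a* and *Clec9a* lay below the median signal of the clusters on average (array medians 4.35 to 4.55), and whether such dim clusters were above background was not tested.

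*Clec5a* was the receptor with its highest values in Cre/+ OIL. Cre/+ TAM mice ran between 6.12 and 6.97 (median 6.63), wt TAM mice between 6.18 and 6.97 (median 6.47), and the 3 Cre/+ OIL mice had 7.29, 7.15 and 6.75. Thus 5 of 6 Cre/+ TAM and 4 of 6 wt TAM mice lay below every Cre/+ OIL mouse. Set against Cre/+ OIL, the log2 fold change was -0.45 (SE 0.18, limma, adjusted p = 0.816) for Cre/+ TAM and -0.52 (SE 0.18, limma, adjusted p = 0.933) for wt TAM, 2 comparisons that share the Cre/+ OIL arrays. Between Cre/+ TAM and wt TAM the log2 fold change was 0.06 (95% confidence interval -0.25 to 0.38). The Cre/+ OIL values 7.29 and 7.15 came from arrays with neg in their titles, a mark unexplained in the sources. Without all arrays so marked, only mouse 3 (6.75) was left in Cre/+ OIL. The log2 fold changes against it were then -0.14 for Cre/+ TAM and -0.29 for wt TAM.

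**Figure D2:**
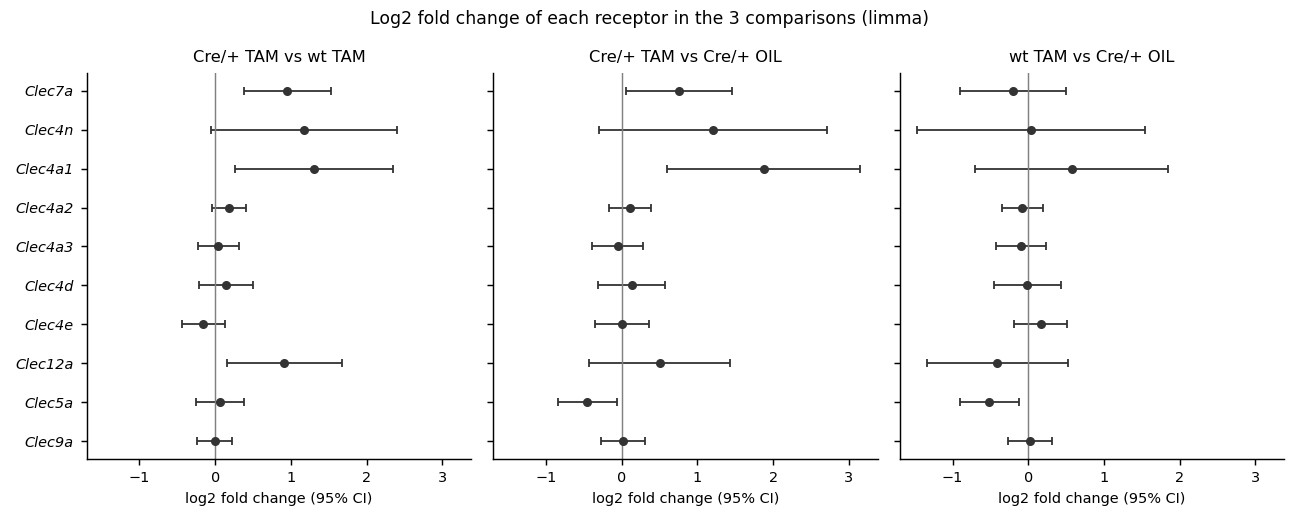
Log2 fold change (x axis) of each receptor (y axis) in Cre/+ TAM vs wt TAM, Cre/+ TAM vs Cre/+ OIL and wt TAM vs Cre/+ OIL, with 95% confidence intervals from limma. Intervals of *Clec7a*, *Clec4a1* and *Clec12a* lie above 0 in the first panel and those of *Clec5a* below 0 in both other panels.

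Over the comparison of Cre/+ TAM with Cre/+ OIL, 0 of 10 members passed the test (limma, smallest adjusted p 0.683), as did 0 of 32471 clusters (0%). At an unadjusted p under 0.05, 2 members were higher (*Clec7a* and *Clec4a1*) and 1 lower (*Clec5a*), where 5.84% of all clusters were so in either direction. *Clec4a1* was the 1 member whose groups did not overlap, against 1.44% of all clusters with every Cre/+ TAM mouse higher. With the range of animal numbers as a block in the fit, *Clec4a1* passed the test (log2 fold change 2.88, limma, adjusted p = 0.0457), as did 0.0647% of all clusters. In the lower range alone, with 2 Cre/+ TAM and 3 Cre/+ OIL mice, it did so too (3.59, limma, adjusted p = 0.0292), along with 0.259% of all clusters. Cre/+ OIL lies in the lower range only, where mice 1 and 2 are the Cre/+ TAM mice. The block takes the effect of the range as equal in all groups. Against wt TAM, the change of *Clec4a1* was 2.02 larger in the lower range (limma interaction, adjusted p = 0.319). Without mice 1 and 2, *Clec4a1* differed from Cre/+ OIL by 1.02 (SE 0.25, limma, adjusted p = 0.505). Over all alternatives its adjusted p ran between 0.0292 and 1. Comparing wt TAM with Cre/+ OIL sets tamoxifen without Cre against the Cre allele without tamoxifen, so their effects cannot be told apart. This comparison again left 0 of 10 members and 0 of 32471 clusters (0%) past the test (limma, smallest adjusted p of a member 0.933). In it, 1 member (*Clec5a*) was lower at an unadjusted p under 0.05, against 2.24% of all clusters. The largest other difference was that of *Clec4a1*, 0.57 (95% confidence interval -0.70 to 1.85). At a threshold of at least 2-fold with an unadjusted p under 0.05, *Clec4a1* was the 1 member higher in Cre/+ TAM against wt TAM (0.191% of all clusters) and against Cre/+ OIL (0.228%) by limma. By the unpaired test that the methods name, 0 members passed this threshold in either direction, against 55 and 50 of 32471 clusters in the same 2 comparisons.

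The 2 ranges of animal numbers gave unlike sizes of change. In the lower range Cre/+ TAM mice 1 and 2 exceeded the 3 wt TAM mice on average by 3.10 for *Clec4n*, 2.74 for *Clec4a1*, 2.11 for *Clec12a* and 1.43 for *Clec7a* on the log2 scale. In the upper range, the differences between 4 Cre/+ TAM and 3 wt TAM mice were 0.27, 0.72, 0.32 and 0.69 for the same genes. Tested as an interaction, 0 of 10 members differed between the ranges (limma, smallest adjusted p 0.154), where 35 of 32471 clusters did (0.108%). At an unadjusted p under 0.05, 4 members did, *Clec4n*, *Clec4a1* and *Clec12a* with more in the lower range and *Clec4e* with less, against 5.88% of all clusters. The direction was nevertheless shared by both ranges for the 4 receptors. *Clec4a1* and *Clec4n* were higher in every Cre/+ TAM mouse than in any wt TAM mouse of its own range, in both ranges, as were 0.684% of all clusters. In the upper range alone, 2.43% of all clusters separated in this way. *Clec7a* was so in the upper range (5.37 to 6.07 in Cre/+ TAM and 4.83 to 5.16 in wt TAM), but not in the lower, where mouse 2 (5.46) lay below wt TAM mouse 3 (5.49). For *Clec4n* the upper ranges were 3.32 to 3.37 in Cre/+ TAM and 2.87 to 3.18 in wt TAM, a narrow separation of low signals. No member passed the test within a range (0.268% of all clusters in the lower and 0.00924% in the upper). At an unadjusted p under 0.05 there were 5 members in the lower range, *Clec4e* among them with a lower value (7.13% of all clusters), and 3 in the upper range, *Clec7a*, *Clec4a1* and *Clec4n* (4.8%).

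**Figure D3:**
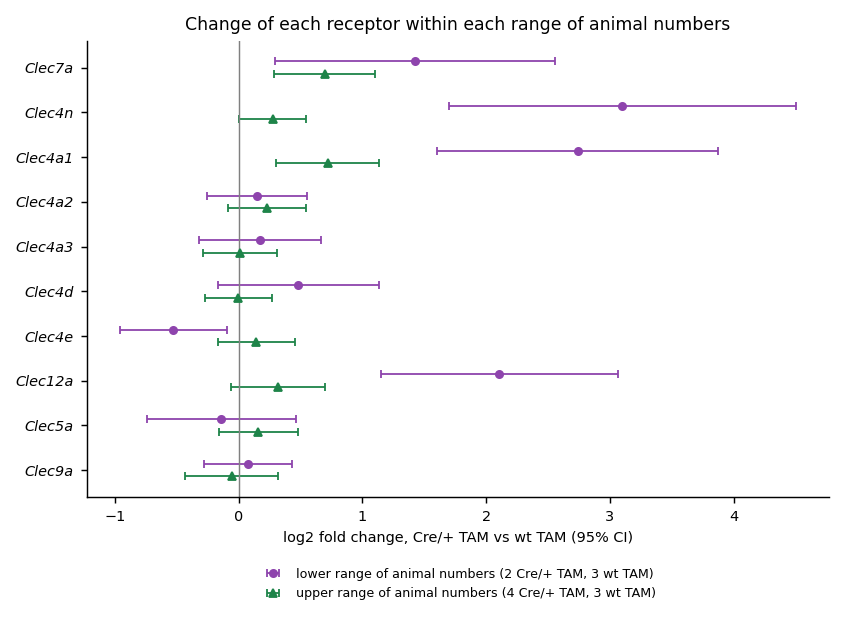
Log2 fold change of Cre/+ TAM vs wt TAM (x axis) for each receptor (y axis) within the lower (circles) and the upper (triangles) range of animal numbers, with 95% confidence intervals from limma. For *Clec4n*, *Clec4a1* and *Clec12a* the lower range lies at 3.10, 2.74 and 2.11 and the upper at 0.27, 0.72 and 0.32.

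Leaving out mice 1 and 2, *Clec7a* kept a log2 fold change of 0.74 (SE 0.20, limma, adjusted p = 0.587), and the values were 0.45 for *Clec4a1*, 0.31 for *Clec12a* and 0.13 for *Clec4n*. Then 2 of 10 members (*Clec7a* and *Clec12a*) were at an unadjusted p under 0.05, against 4.56% of all clusters, and 0 were called (0.0493% of all). The median was 0.15 over the members and -0.01 over all clusters. All 4 remaining Cre/+ TAM mice lay above the wt TAM mean for 6 of the 10 receptors, *Clec7a*, *Clec4a1*, *Clec4n* and *Clec12a* as well as *Clec4a2* and *Clec5a*, against 13.7% of all clusters.

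Most markers of border-associated macrophages were also higher on average in Cre/+ TAM. Their mean was highest in mice 1 and 2, as were *Clec4n*, *Clec4a1* and *Clec12a*. For *Clec7a*, mouse 2 (5.46) lay below mice 3, 4 and 5 (5.58, 5.94 and 6.07). Of the 14 markers, 13 had a positive log2 fold change against wt TAM, as did 14559 of 32471 clusters. At an unadjusted p under 0.05, 5 were higher (2.92% of all clusters), and 0 were called (0.0246%). The markers were led by *Ms4a7* (3.27), *Pf4* (2.77) and *Mrc1* (1.91), followed by *Siglec1* (0.79), *F13a1* (0.68), *Cd36* (0.64) and *Cd163* (0.62). *Lyve1* and *Cd209f*, which mark subsets of such macrophages, stood at -0.01 and 0.05. Without mice 1 and 2, *Ms4a7* (2.13) and *Pf4* (1.74) had smaller differences but were called (limma, adjusted p = 0.000756 and 0.00108), as were 0.0493% of all clusters. *Mrc1* then stood at 0.91 (limma, adjusted p = 0.402). *Siglec1*, *F13a1*, *Cd36* and *Cd163* stood at 0.48, 0.27, 0.21 and 0.04, and the median of the 14 was 0.20. Monocyte markers averaged 3.68 to 3.94 in Cre/+ TAM, 3.77 to 4.00 in wt TAM and 3.70 to 4.36 in Cre/+ OIL. The highest of these means was that of Cre/+ OIL mouse 3. Dendritic cell markers averaged 5.23 to 5.43 in Cre/+ TAM, 5.31 to 5.43 in wt TAM and 5.38 to 5.41 in Cre/+ OIL. From these same RNA data, the study lists *Ms4a7*, *Mrc1* and *Pf4* as higher in *Tgfbr2*-deficient microglia. That list rests on the same arrays and cannot show which cells carried these RNAs. The level of these markers was not taken as a count of border-associated macrophages. Whether cells other than microglia contributed to the marker or receptor signals was not tested.

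**Figure D4:**
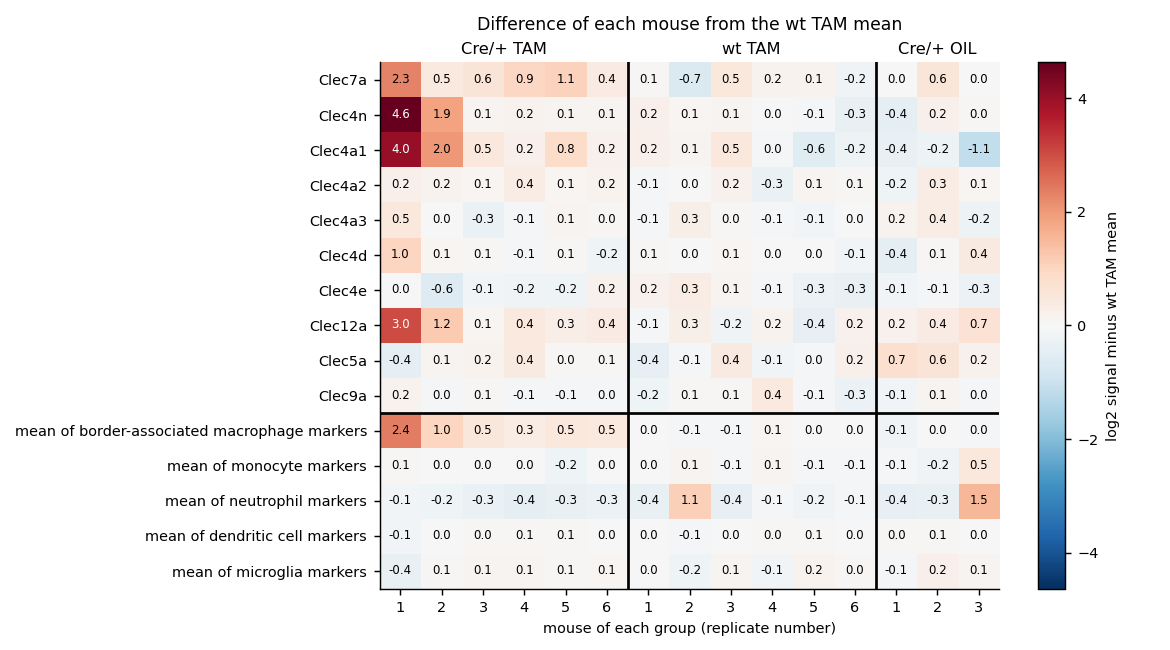
Log2 signal of each mouse (x axis, grouped) minus the wt TAM mean for the 10 receptors and for the means of 5 marker lists (y axis), coloured from lower (blue) to higher (red). Mouse 1 of Cre/+ TAM is highest for *Clec4n* (4.63), *Clec4a1* (4.03), *Clec12a* (3.01) and *Clec7a* (2.30), and the border-associated macrophage mean is highest in the same mouse (6.99 as a level).

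Genes whose centred signals were most like those of the 3 receptors with the largest differences were found by the mean absolute difference over the 15 arrays. *Clec7a* was closest to *Ms4a6b* (0.22 on the log2 scale), *Siglec1* (0.23) and *Blvrb* (0.28). *Clec4n* was closest to *Cd300ld* (0.22), *Clec4b1* (0.23) and *Dab2* (0.24), and *Clec4a1* to *Dab2* (0.26), *Clec4b1* (0.30) and *Msr1* (0.33). The receptors' own mean absolute deviations were 0.46, 0.74 and 0.78 for *Clec7a*, *Clec4n* and *Clec4a1*. *Clec4b1*, a further C-type lectin gene, and *Dab2* were each close to both *Clec4n* and *Clec4a1*, and in Cre/+ TAM mouse 1 they stood 4.47 and 3.30 above their own means.

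The other genes of the pathway were described by 3 lists for Cre/+ TAM vs wt TAM. Of all clusters, 0.0246% were called in either direction there, and 2.92% were higher at an unadjusted p under 0.05. Of 38 further C-type lectin genes, 0 were called and 3 were higher at an unadjusted p under 0.05, with a median log2 fold change of 0.03. *Mrc1*, the mannose receptor and itself a macrophage marker, was higher in all 6 Cre/+ TAM mice (5.76 to 10.26, median 6.62) than in any wt TAM mouse (5.06 to 5.61, median 5.37), by 1.91 (SE 0.55, limma, adjusted p = 0.47). The difference was 1.32 without mouse 1 and 0.91 without mice 1 and 2. *Clec4b1* differed by 1.27 (SE 0.61), with 0.54 left without mouse 1 and 0.18 without mice 1 and 2. *Clec2d*, which encodes a ligand of NK cell receptors, differed by 0.80 (SE 0.29), and by 0.50 and 0.27 with the same mice left out. Among 30 adaptors and kinases below the receptors, 0 were called and 2 were higher at an unadjusted p under 0.05, *Ptpn6*, the phosphatase recruited by inhibitory receptors (0.26), and *Fcer1g*, the Fc receptor γ chain (0.20, named after its value was seen). *Vav3*, an exchange factor, differed by 0.90 (SE 0.54), but by 0.27 without mouse 1 and by -0.06 without mice 1 and 2. *Hcst* differed by 0.25 (SE 0.14), and the median of the list was 0.05. Of 20 measured output genes, cytokine, chemokine and inflammasome genes downstream of the receptors, 0 were called and 2 were higher at an unadjusted p under 0.05, *Tnf* (1.12, SE 0.43) and *Il6* (0.58, SE 0.16, named after its value was seen), with a median of 0.15. *Il10* differed by 0.80 (SE 0.45), but by 0.25 without mouse 1 and 0.12 without mice 1 and 2, and *Ccl4* by 0.73 (SE 0.37), with 0.59 and 0.33 left. Without mice 1 and 2, *Tnf* differed by 0.62 and *Il6* by 0.72. *Tnf* overlapped between the groups, at 7.15 to 8.95 (median 7.51) in Cre/+ TAM and 5.82 to 7.44 (median 6.78) in wt TAM. *Cd72* (0.76, SE 0.31, also named after its value was seen, and 0.44 without mouse 1) was, beside *Mrc1* and *Clec2d*, among the lectin genes at an unadjusted p under 0.05. Against Cre/+ OIL, the log2 fold changes of Cre/+ TAM were 0.22 for *Clec2d*, 0.06 for *Ptpn6*, 0.09 for *Fcer1g* and 0.30 for *Il6*. They were 2.39 for *Mrc1*, 1.59 for *Clec4b1*, 0.94 for *Vav3*, 0.28 for *Hcst* and 0.74 for *Cd72*. For *Tnf*, *Il10* and *Ccl4* they were 1.00, 0.98 and 0.72. All wt TAM mice lay below every Cre/+ OIL mouse for *Clec2d*. The 3 Cre/+ OIL mice had 5.91, 6.16 and 8.52 for *Tnf*.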

How the data were processed

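The authors amplified the RNA of sorted microglia, hybridised 1 array per mouse and deposited log2 signals per transcript cluster, normalized by RMA (background correction, alignment of arrays by quantiles, summary over probes). RMA software and genome build are not given in the sources used here. While the study speaks of RNAseq in places, its methods and values are those of arrays. Columns with the authors' own group averages, fold changes and p-values were left aside. Of 34390 clusters, the 32471 with a symbol were tested. Values of a second deposited table differ from these by at most 0.005.

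Groups came from the labels. Arrays have no read depth, and precision is limited by their number. A limma model (version 3.58.1, R 4.3.3; lmFit, eBayes) with 3 group means took in every array, and 3 two-sided contrasts were adjusted by Benjamini-Hochberg over the tested clusters (called at an adjusted p under 0.05). For the interaction, each group was divided by the range of animal numbers. A gene was read from its cluster with the highest mean signal. All 10 receptors are named, as are, of each pathway list, the 3 genes with the largest difference, and the 3 genes most like each of the 3 receptors with the largest difference. Receptors, lists, ranges and alternatives were chosen with earlier results of these data known. *Cxcl2* of the output list matched no symbol. The model was also run on simulated data in which 200 clusters had known changes. The alternatives comprised centring each array on its median, quantile normalization, the second table, brighter clusters only, averaging the clusters of a gene, a trended and robust prior, array weights, fits of the compared groups alone, the methods' unpaired test, omission of arrays with neg in their titles (unexplained in the sources), the range of animal numbers as a block and each range alone, and omission of Cre/+ TAM mice 1 and 2 or of each array in turn.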

Additional observations from a re-analysis of the deposited data

Results flagged for a closer look

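Of 20 groups of 6 mice (10 receptors in Cre/+ TAM and wt TAM), 2 held a mouse far from the rest by Dixon's test. Chance gives about 1 in 20 for independent groups, but these share the same mice. The test sets the gap to the nearest mouse against the range, so a second high mouse can hide the first. For *Clec4n* and *Clec12a*, not flagged, mouse 1 had 7.83 and 5.91 and mouse 2 had 5.05 and 4.12. *Clec7a* in Cre/+ TAM mouse 1 had a log2 signal of 7.30, and the nearest Cre/+ TAM mouse had 6.07. *Clec4d* in the same mouse was at 3.97, and the nearest had 3.06.

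*Clec4e* (Mincle) took opposite signs in the ranges of animal numbers, with a difference of -0.67 on the log2 scale (lower minus upper range of Cre/+ TAM minus wt TAM; limma interaction, adjusted p = 0.61). In the lower range, Cre/+ TAM mice had 1.90 and 2.50 and wt TAM mice 2.62 to 2.85. In the upper range Cre/+ TAM mice ran between 2.29 and 2.69 and wt TAM mice between 2.16 and 2.44. Every Cre/+ TAM mouse was thus below the wt TAM mean of its range in the first and above it in the second. These signals lie below the array medians.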

How the results depend on the processing

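Of 675 values of single receptors under the alternatives, 607 kept their direction and their side of the threshold, 66 turned direction, 2 passed the test and 0 lost it. *Clec4a1* passed it against Cre/+ OIL with the range of animal numbers as a block (2.88) and in the lower range alone (3.59). *Clec7a*, *Clec4n*, *Clec4a1* and *Clec12a* against wt TAM, and *Clec7a*, *Clec4n*, *Clec4a1* and *Clec5a* against Cre/+ OIL for Cre/+ TAM, turned under none of them. The cause of each change below was not tested.

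Where no share over all clusters stands beside a count below, it describes the members only. For Cre/+ TAM vs wt TAM, members at an unadjusted p under 0.05 numbered 5 in the lower range alone (7.13% of all clusters), and 3 to 4 with 1 array left out. For Cre/+ TAM vs Cre/+ OIL they numbered 0 by the methods' unpaired test, 1 without the arrays with neg in their titles, and 5 with the range as a block and in the lower range alone, where 1 was called in each. With 1 array left out they numbered 1 to 3, and 1 without Cre/+ TAM mouse 1 or Cre/+ OIL mouse 1. For wt TAM vs Cre/+ OIL they numbered 3 with only the arrays compared, 0 without the arrays with neg and in the lower range alone, 2 with the block, and 0 to 1 with 1 array left out. Over all clusters, 8 were called for Cre/+ TAM vs wt TAM, against 1 by the methods' unpaired test, 3 without the arrays with neg, 51 with the block, 87 and 3 in the lower and the upper range, 16 without Cre/+ TAM mice 1 and 2, and 2 to 15 with 1 array left out (15 and 13 without Cre/+ TAM mouse 1 and wt TAM mouse 6, 2 and 3 without wt TAM mice 2 and 4, 5 without Cre/+ TAM mouse 2 or wt TAM mouse 1). For Cre/+ TAM vs Cre/+ OIL, 0 were called, against 6 without the arrays with neg, 21 with the block, 84 in the lower range, 3 without Cre/+ TAM mice 1 and 2, and 0 to 3 with 1 array left out (3 without Cre/+ OIL mouse 2, 1 without Cre/+ TAM mouse 6 or Cre/+ OIL mouse 1). For wt TAM vs Cre/+ OIL, 0 were called, against 3 without the arrays with neg.

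The values below turned direction. For Cre/+ TAM vs wt TAM, *Clec9a* was 0.017 with median centring, 0.033 with quantile normalization, 0.044 with array weights, 0.0072 without the arrays with neg and 0.076 in the lower range. *Clec4a3* was -0.054 with quantile normalization and -0.059 without Cre/+ TAM mice 1 and 2. *Clec5a* was -0.14 in the lower range. *Clec4d* was -0.0029 in the upper range and -0.048 without Cre/+ TAM mice 1 and 2. *Clec4e* was 0.14 in the upper range. With 1 array left out, Cre/+ TAM vs wt TAM ran from -0.046 to 0.11 for *Clec4a3*, -0.024 to 0.21 for *Clec4d*, -0.0087 to 0.16 for *Clec5a* and -0.063 to 0.081 for *Clec9a*. For Cre/+ TAM vs Cre/+ OIL, *Clec4e* was -0.027 with median centring and -0.14 in the lower range. *Clec9a* was -0.020 with median centring, -0.033 with array weights and -0.021 without Cre/+ TAM mice 1 and 2. *Clec4a3* was 0.27 without the arrays with neg, 0.087 with the block and 0.14 in the lower range. *Clec4d* was -0.26 without the arrays with neg and -0.061 without Cre/+ TAM mice 1 and 2. *Clec12a* was -0.096 without Cre/+ TAM mice 1 and 2. With 1 array left out, Cre/+ TAM vs Cre/+ OIL ran from -0.024 to 0.24 for *Clec4a2*, -0.22 to 0.075 for *Clec4a3*, -0.082 to 0.32 for *Clec4d*, -0.063 to 0.095 for *Clec4e* and -0.043 to 0.081 for *Clec9a*. For wt TAM vs Cre/+ OIL, *Clec4n* was -0.019 with median centring, -0.0011 with quantile normalization, -0.024 with array weights and -0.071 without the arrays with neg. *Clec9a* was -0.038 with median centring, -0.019 with quantile normalization and -0.077 with array weights. *Clec4a3* was 0.22 without the arrays with neg and 0.011 with the block. *Clec4d* was 0.15 with the block and 0.033 in the lower range. *Clec12a* was 0.017 with the block. With 1 array left out, wt TAM vs Cre/+ OIL ran from -0.14 to 0.18 for *Clec4n*, -0.21 to 0.053 for *Clec4a2*, -0.26 to 0.034 for *Clec4a3*, -0.23 to 0.18 for *Clec4d* and -0.069 to 0.088 for *Clec9a*.

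No paired analysis was possible because the labels give each mouse an animal number of its own, and the numbers 1 to 6 used here only name mice within a group. Of the named genes of the pathway lists, refitted without Cre/+ TAM mouse 1 and without mice 1 and 2 (chosen after seeing the data), *Vav3* turned direction (-0.064 without both). 5 receptors lie below the median signal and have no value in the fit of brighter clusters. Cre/+ OIL holds 3 mice, all in the lower range, so range and group are partly joined in its comparisons.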
